A study of Mus musculus with 2 samples.

Results

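The nuclei described here are mouse colon nuclei that carry RNA of crypt-base genes together with RNA of Fut9, Nxpe2, Etv4 or Nox1. A nucleus was a member when it held at least 3 UMIs (unique RNA molecules) over Lgr5, Smoc2, Axin2, Ascl2, Rgmb and Slc12a2 from at least 2 of them, under 0.5% of its UMIs from Muc2, and at most 1 UMI over Top2a, Mki67, Cenpf, Cenpe, Knl1 and Kif15. It also had to hold more UMIs over Fut9, Nxpe2, Etv4 and Nox1 than over Dmbt1, Hoxb8, Ntrk2 and Otc. This rule was met by 624 of the 21034 nuclei kept, 314 of 8888 from wild-type mice and 310 of 12146 from Pink1 knockout mice. The 452 nuclei with the opposite balance (192 wild-type and 260 knockout) are called the Dmbt1 type below, and the members the Fut9 type. A further 276 nuclei of the gate had equal sums and belong to neither, so the types are set by the rule. The rule used the RNA counts of these same nuclei, so every contrast between the types is a description.

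Colons came from male C57BL/6 mice at 15 weeks of age, either Pink1 knockout or their wild-type littermates. Pink1 encodes a mitochondrial kinase that marks damaged mitochondria for removal. SYTOX Green stained nuclei were sorted into methanol, the nuclei of 3 mice per genotype were pooled, and each pool gave 1 library on the 10x Genomics 3′ platform. With 1 library per genotype there is no replicate and no test between genotypes, and the batch label differs between the libraries in the same way as the genotype, so genotype, batch, pool and library cannot be told apart. Which part of Pink1 was deleted is not stated in the labels. All intervals below are 95% intervals for counting error only.

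Crypts are the pits of the colon wall from which its lining is renewed. Stem and progenitor cells at the crypt base are kept dividing by Wnt signals, which act through Frizzled and Lrp receptors and are strengthened when R-spondin binds Lgr5. Their daughters move up the crypt and become absorptive colonocytes or mucus-secreting goblet cells, a choice that Notch signals control. Hox genes lie in clusters, are used in order along the body axis, and keep a record of position in the gut lining. Fut9 encodes a fucosyltransferase that makes the Lewis x sugar, Nox1 the catalytic subunit of the superoxide-producing NADPH oxidase of the colon lining, and Etv4 an ETS transcription factor that is a target of ERK signalling.

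The sequences shown here are the 250 bases before the start of 6 genes named in the results, from RefSeq on GRCm38.p6, each written 5′ to 3′ on the gene's own strand. Nxpe4, Hoxd13 and Hoxb4 separated the Fut9 type from the Dmbt1 type most clearly in both libraries, and Fos, Btg2 and Errfi1 were higher in the knockout members. Capitals mark the letters TGACGTCA, the cyclic AMP response element, searched on both strands and present in 508 of 32851 promoter windows of this length (1.55%). It begins 166 bases before the start of Btg2 and 51 bases before the Errfi1 start shown, and these letters were not found in the other 4 windows. Errfi1 has another annotated start, with a window beginning at chr4:150853546. That window lacks these letters and is not shown. In the GENCODE M21 annotation the windows of Nxpe4 and Errfi1 lie in introns of longer models of these genes, that of Errfi1 also overlaps an exon of the antisense RNA 1700045H11Rik, and the other 4 lie outside gene models.
Nxpe4, a gene of the Nxpe family, chr9:48361791-48362040, plus strand: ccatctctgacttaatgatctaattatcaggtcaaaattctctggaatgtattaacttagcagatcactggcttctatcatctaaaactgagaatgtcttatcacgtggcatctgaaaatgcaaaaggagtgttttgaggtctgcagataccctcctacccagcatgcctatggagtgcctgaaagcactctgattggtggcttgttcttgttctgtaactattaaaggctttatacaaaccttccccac
Hoxd13, the last gene of the Hoxd cluster, chr2:74667975-74668224, plus strand: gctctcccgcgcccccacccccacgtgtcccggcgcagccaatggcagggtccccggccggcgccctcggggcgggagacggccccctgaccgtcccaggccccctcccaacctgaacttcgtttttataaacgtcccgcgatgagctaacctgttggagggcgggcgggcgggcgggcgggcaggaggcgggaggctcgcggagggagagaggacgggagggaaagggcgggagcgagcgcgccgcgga
Hoxb4, in the middle of the Hoxb cluster, chr11:96318017-96318266, plus strand: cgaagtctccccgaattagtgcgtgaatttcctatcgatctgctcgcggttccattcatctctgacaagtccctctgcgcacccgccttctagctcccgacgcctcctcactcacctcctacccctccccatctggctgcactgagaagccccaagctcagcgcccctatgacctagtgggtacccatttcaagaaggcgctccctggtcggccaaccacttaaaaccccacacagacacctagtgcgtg
Fos, the partner of Jun in AP-1, chr12:85473640-85473889, plus strand: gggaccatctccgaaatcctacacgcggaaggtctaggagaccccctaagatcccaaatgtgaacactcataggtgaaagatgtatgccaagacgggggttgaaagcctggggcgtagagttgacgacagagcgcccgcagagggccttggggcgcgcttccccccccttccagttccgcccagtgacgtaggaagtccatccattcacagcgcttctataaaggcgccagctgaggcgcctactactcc
Btg2, an antiproliferative early response gene, chr1:134079156-134079405, minus strand: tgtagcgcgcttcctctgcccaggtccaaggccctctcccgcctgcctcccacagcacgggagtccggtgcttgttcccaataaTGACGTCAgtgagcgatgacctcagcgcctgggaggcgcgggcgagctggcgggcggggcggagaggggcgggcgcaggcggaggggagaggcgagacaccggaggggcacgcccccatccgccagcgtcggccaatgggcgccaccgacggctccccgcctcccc
Errfi1, an inhibitor of the EGF receptor, chr4:150854820-150855069, plus strand: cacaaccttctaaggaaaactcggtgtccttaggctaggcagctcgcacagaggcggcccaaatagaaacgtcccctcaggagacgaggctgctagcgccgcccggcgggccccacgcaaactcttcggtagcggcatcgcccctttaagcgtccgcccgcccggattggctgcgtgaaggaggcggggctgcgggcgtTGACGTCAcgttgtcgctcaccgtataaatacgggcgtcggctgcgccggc

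The libraries differed in ways that touch the results. Kept nuclei gave 16914486 UMIs in the wild-type and 22201971 in the knockout library, and members had medians of 2087 and 1790.5 UMIs and of 1328.5 and 1185 genes. The median mitochondrial share of UMIs was 0.0749% in wild-type and 0.136% in knockout members, and 0.0834% and 0.154% in all kept nuclei. Levels are given as CPM, counts scaled to a total of 1000000 UMIs of nuclear-encoded genes and summed over the members of a library. The floor of 3 counts is 4.28 CPM in wild-type and 4.82 CPM in knockout members. The Y-linked genes Ddx3y, Uty, Kdm5d and Eif2s3y were at 0.489, 0.573, 0.491 and 0.450 of the wild-type level in knockout members and at 0.512, 0.561, 0.473 and 0.549 in all nuclei, and Neat1, a nuclear noncoding RNA, was at 4374 and 9159 CPM in members. Pink1 had 7 and 4 counts in members, a ratio of 0.644 (0.138 to 2.53), and was at 0.573 (0.457 to 0.716) over all nuclei, so the members hold too few Pink1 counts to check the label. The libraries shared 28 cell barcodes, of which 1 belonged to a wild-type member and 0 to a knockout member. The part of these library differences in the knockout to wild-type ratios below was not tested.

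The members' own rule genes show how sharply the rule divides the nuclei. Fut9 was at 1682 CPM in wild-type and 1767 CPM in knockout members, against 18.6 and 48.5 CPM in the Dmbt1 type. At least 1 Fut9 UMI was found in 83.8% and 87.1% of members and in 3.65% and 5.77% of Dmbt1 type nuclei. Stromal nuclei, which should lack Fut9 and show what free RNA adds, were taken as nuclei with at least 3 UMIs from at least 2 fibroblast or smooth muscle markers and none of Epcam or Cdh1; of these, 1.52% and 1.04% held a Fut9 UMI. Members lay far above the stromal share, and the Dmbt1 type lay above it by less, with intervals that overlap in the wild-type library. In CPM, stromal nuclei held Fut9 at 35.8 and 7.73. By this measure the Dmbt1 type was below stromal nuclei in the wild-type library, with overlapping intervals, and above them in the knockout library. The wild-type stromal level came from 37 counts in 10 of 658 nuclei, with 12 of them in 1 nucleus. Nxpe2, whose protein has no settled role, was at 560 and 501 CPM in members and at 9.31 and 15.5 CPM in the Dmbt1 type. Etv4 was at 154 and 170 CPM against 30.3 and 48.5, and Nox1 at 115 and 90.0 CPM against 37.2 and 21.3. Etv4 and Nox1 were found in fewer members than Fut9 and Nxpe2: 27.4% and 28.4% of members held an Etv4 UMI, and 19.4% and 15.8% a Nox1 UMI.

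The crypt-base genes that both types had to carry differed in balance. Lgr5, the R-spondin receptor and stem cell marker, was at 175 and 209 CPM in members and at 230 and 279 CPM in the Dmbt1 type. Smoc2, a secreted matrix protein of stem cells, was at 201 and 323 CPM in members and at 135 and 122 CPM in the Dmbt1 type. Smoc2 was thus higher in members in both libraries, with intervals of the 2 types that overlap in the wild-type library. Lgr5 was lower, with intervals of the 2 types that overlap in both libraries. Axin2, a Wnt feedback inhibitor, was at 145 and 146 CPM against 198 and 204 CPM. Rgmb, a BMP co-receptor, was at 691 and 577 CPM against 514 and 576. Slc12a2, the sodium-potassium-chloride cotransporter that loads chloride into secreting cells, was at 1653 and 1721 CPM against 2481 and 2315. Ascl2, a stem cell transcription factor, gave only 13 and 17 counts in members.

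Members ranged from nuclei that just met the rule to nuclei far inside it. The sums of the Fut9 set and the Dmbt1 set were apart by 1 UMI in 67 wild-type and 53 knockout members, by 2 in 39 and 32, by 3 to 4 in 76 and 92, by 5 to 9 in 81 and 105, and by 10 or more in 51 and 28. Medians were 3.5 and 4 UMIs, and the largest difference in a nucleus was 46 in the wild-type and 17 in the knockout library. A single gene of the Fut9 set was detected in 44.9% and 38.1% of members, 2 genes in 35.7% and 44.8%, 3 in 16.2% and 14.8%, and all 4 in 3.18% and 2.26%. No Fut9 UMI at all was present in 51 and 40 members, which entered through Nxpe2, Etv4 or Nox1. No UMI of the Dmbt1 set was present in 84.4% and 77.7%.

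Just outside the rule lay 147 wild-type and 129 knockout nuclei whose sums were equal, of which 126 and 104 held no UMI of either set. Nuclei with 2 crypt-base UMIs that met every other clause numbered 52 and 61, and members with exactly 3 numbered 49 and 65. A count of 2 cycling UMIs kept out 29 and 24 nuclei, while 69 and 50 members held 1. Muc2, the main gel-forming mucin, lay between 0.5% and 0.75% of UMIs in 2 and 6 nuclei outside, and between 0.25% and 0.5% in 14 and 12 members. Nuclei further above the Muc2 limit were not counted here.

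Named genes outside the rule that stood highest in members against all other kept nuclei were, in wild-type and knockout libraries, Clca3a2 at 6.93-fold and 9.25-fold, Clca3b at 6.44-fold and 8.35-fold, Nxpe4 at 5.58-fold and 5.54-fold, and Npy1r, a neuropeptide Y receptor, at 5.15-fold and 5.82-fold (5 CPM added). Gm830, a gene known only by a clone name, ranked between them at 5.74-fold and 7.23-fold. Ephb3, a receptor that holds cells low in the crypt and is a Wnt target, was at 4.11-fold and 3.59-fold. Clca3a1, Clca3a2 and Clca3b are near-identical neighbours, so the division of counts among them is uncertain. These values describe how the nuclei were chosen.

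Markers of other cells were checked against the label. Summed over 10 goblet markers, members were at 1374 and 1351 CPM, close to the 1337 and 1514 CPM of stromal nuclei and far from the 8935 and 8385 CPM of nuclei outside the gate. The 8 fibroblast markers summed to 147 and 212 CPM against 6118 and 6188 in stromal nuclei, with 78 UMIs in 1 knockout member. Stromal nuclei were chosen on these markers and those of smooth muscle, so their high sum was set by that choice. Endothelial markers summed to 14.3 and 20.9 CPM, with Cdh5, Kdr and Emcn at 0 in both libraries, and 7 macrophage markers to 12.8 and 14.5 CPM, with C1qb at 0 in both. The 7 smooth muscle markers were at 78.4 and 129 CPM, the 8 glia, neuron and pacemaker markers at 134 and 151, and the 11 lymphoid and plasma cell markers at 54.2 and 30.5, with Cd3g, Themis and Skap1 at 0 in both. The 9 enteroendocrine markers were at 14.3 and 61.0 CPM, with 24 UMIs in 1 knockout member, and the 8 tuft markers at 9.98 and 56.2, with 30 UMIs in 1 knockout member. The 8 cycling markers were at 104 and 98.0 CPM. The defining markers of these other lineages were thus low, and the 12 crypt-base markers, of which 5 are genes of the rule, were at 3765 and 3795 CPM, with Tnfrsf19 at 0 in knockout members. The Dmbt1 type was higher on this crypt-base sum, at 4497 and 4588 CPM. The rule itself caps Muc2 and 6 of the cycling genes, so the low goblet and cycling sums are no check of the label. Of the 7 crypt-base markers outside the rule, Lrig1, Sox9, Ephb2, Ephb3, Cdca7 and Cd44 were higher in CPM in members than outside the gate in both libraries, for example Cdca7 at 128 and 108 against 28.5 and 23, but Cd44 lay at or below the stromal level. Tnfrsf19 was lower, at 2 and 0 counts in members.

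Colonocyte markers differed between the libraries. The 10 markers summed to 576 CPM in wild-type and 1194 CPM in knockout members, with all 10 detected in each library. Ceacam1, an adhesion molecule of the epithelial surface, gave most of this, with 277 and 582 counts, or 395 and 935 CPM. The Dmbt1 type went from 1141 to 2156 CPM and stromal nuclei from 230 to 418. The 9 general epithelial markers summed to 1632 and 2583 CPM in members and to 298 and 390 in stromal nuclei, which by choice held no UMI of the markers Epcam and Cdh1. Their part in the differences between genotypes was not tested.

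Hox genes set the types apart in both directions. Of 39 Hox genes listed, 12 had at least 50 counts over both types in each library and were not in the rule. In each library 4 were at least 1.5-fold higher and 4 at least 1.5-fold lower in the Fut9 type, while 9.27% of 4467 genes were higher and 7.95% lower in the wild-type library and 8.69% and 7.16% in the knockout library. The list's median log2 ratio was 0.01 and 0.25 and that of all genes -0.00 in both, because genes of the 2 directions offset each other. Hoxd13, Hoxd11, Hoxb13 and Hoxa5 were on the high side, and Hoxb3, Hoxb4, Hoxb5 and Hoxb6 on the low side.

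Hoxd13, the most posterior Hoxd gene (chr2:74668310-74671599), had 78 and 103 counts in members, or 111 and 165 CPM, against 5 and 7 counts in the Dmbt1 type, or 11.6 and 13.6 CPM. Its ratio of Fut9 to Dmbt1 type was 9.55 (3.92 to 30.2) in the wild-type and 12.2 (5.70 to 31.1) in the knockout library. Hoxb13, the most posterior Hoxb gene, was at 72.7 and 103 CPM against 27.9 and 17.5, a ratio of 2.60 (1.37 to 5.36) and 5.89 (2.91 to 13.5). Both posterior genes were thus high in the Fut9 type of each library. Hoxd11 was at 110 and 104 CPM against 14.0 and 19.4, but stromal nuclei held 150 and 134 CPM, more than the members. Hoxa5, an anterior gene, was at 175 and 165 CPM against 107 and 56.3, so the high side was not made of posterior genes alone.

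Hoxb4 (chr11:96318267-96321638) had 10 and 17 counts in members and 188 and 179 in the Dmbt1 type, or 14.3 and 27.3 CPM against 438 and 347. The ratio was 0.0326 (0.0154 to 0.0612) and 0.0786 (0.0448 to 0.129). Hoxb4 in members lay below the 63.9 and 62.9 CPM of stromal nuclei. Hoxb5 had 17 counts in members of each library and 131 and 165 in the Dmbt1 type, a ratio of 0.0795 and 0.0853, and Hoxb6 had 6 and 12 counts against 90 and 90. Hoxb3 had 14 and 6 counts against 86 and 91. These genes lie in one cluster with Hoxb8, which the rule used, and no source states how reads of overlapping genes were divided there. Hoxb9, on the other side of Hoxb8, was not set apart, at 267 and 400 CPM in members and 300 and 380 CPM in the Dmbt1 type. Outside the measured genes, Hoxd4 had 2 and 3 counts in members and 43 and 54 in the Dmbt1 type.

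Nxpe4 (chr9:48162023-48400025, plus strand) had 177 and 159 counts in members, or 252 and 255 CPM, and 5 and 12 counts in the Dmbt1 type, or 11.6 and 23.3 CPM. The ratios of 21.7 (9.12 to 67.6) and 11 (6.11 to 21.7) were the highest of the genes named in this contrast for the wild-type library. Stromal nuclei held 4.84 and 6.18 CPM. The gene's span contains that of its paralog Nxpe2 (chr9:48318006-48353454, minus strand), a gene of the rule, so the division of reads between them is uncertain.

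A set of 3 enzymes that extend or cap sugar chains was higher in the Fut9 type of both libraries. B3gnt5, which starts the chain on which Lewis sugars of glycolipids are built, was at 448 and 602 CPM in members and 102 and 134 CPM in the Dmbt1 type, a ratio of 4.37 (3.18 to 6.14) and 4.50 (3.47 to 5.90). B3gnt7, an enzyme of the same family, was at 405 and 447 CPM against 114 and 95.1, a ratio of 3.55 and 4.70. St3gal6, a sialyltransferase of the sialyl Lewis x pathway, was at 651 and 559 CPM against 244 and 177, a ratio of 2.66 and 3.17. Leaving out Fut9, the list of fucosyltransferases and Lewis sugar genes held 9 measured genes, of which 3 were higher and 0 lower in the wild-type library and 4 higher and 1 lower in the knockout library. Fut8, which adds core fucose, was at a ratio of 1.27 and 1.53.

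Duox2, a hydrogen peroxide producing oxidase related to Nox1, was at 172 and 182 CPM in members and 34.9 and 36.9 CPM in the Dmbt1 type, a ratio of 4.94 (2.88 to 9.10) and 4.92 (3.01 to 8.48). It was the 1 gene past 1.5-fold among the 4 measured genes of the NADPH oxidase list in each library. Cpox, an enzyme of heme synthesis, was at 272 and 302 CPM against 44.2 and 40.8, and Cd81, a tetraspanin of the cell surface, at 125 and 129 CPM against 23.3 and 27.2. All 3 genes were high in the members of both libraries.

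Hsd3b3, a steroid dehydrogenase, was low in the Fut9 type, at 121 and 101 CPM against 1148 and 627 in the Dmbt1 type, a ratio of 0.106 (0.0829 to 0.133) and 0.161 (0.121 to 0.212). Cd44, a hyaluronan receptor and Wnt target, was at 133 and 94.8 CPM against 417 and 479, a ratio of 0.318 (0.245 to 0.411) and 0.198 (0.146 to 0.264), with stromal nuclei at 142 and 134 CPM. Cd44 in members thus lay at or below the stromal level. The ratios of Tex9 were 0.234 and 0.252, of Apol10a 0.191 and 0.229, and of Nbea 0.251 and 0.252. Among 16 measured genes of ion and water transport, 6 were lower in each library and 1 and 0 higher. Car12, a carbonic anhydrase, was at a ratio of 0.397 and 0.283. Slc26a3, the chloride-bicarbonate exchanger of colonocytes, was at 0.181 and 0.326, but these values moved with the processing. The wild-type ratio was 0.418 without nuclei holding a stromal or immune marker UMI and 0.0268 with free RNA subtracted, and the knockout ratio was 0.158 with the 1 nucleus of most counts in each type left out.

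Wnt target and stem cell genes did not divide the types as a list: of 12 measured genes outside the rule, 2 were higher and 1 lower in the Fut9 type of the wild-type library and 1 higher and 3 lower in the knockout library, with median log2 ratios of 0.09 and -0.19. Tcf7l1, a Wnt pathway transcription factor that represses targets, was in another list and was at a ratio of 3.37 (2.24 to 5.23) and 2.19 (1.54 to 3.16). Lrig1, an EGF receptor inhibitor and stem cell marker, was at 1.66 and 1.47, Ephb3 at 1.69 and 1.49, and Sox9, a transcription factor of crypt progenitors, at 1.48 (1.11 to 2.01) and 2.56 (1.92 to 3.45). These 3 genes were above 1 in both libraries and crossed 1.5-fold in 1 library each.

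The levels of genes outside the rule are described next along the balance of the sums, which the rule used, for genes chosen because they separate the types. In nuclei whose Dmbt1 set led by 2 or more UMIs, led by 1, equalled the Fut9 set, trailed by 1, by 2 to 4, and by 5 or more, Hoxb4 was at 534, 135, 93.1, 66.6, 4.23 and 2.90 CPM in the wild-type library. In the knockout library it was at 365, 226, 129, 0, 45.0 and 21.1 CPM. The bins of the knockout library were thus not in strict order. Nxpe4 was low where Hoxb4 was high, at 15.3, 0, 39.4, 183, 194 and 316 CPM in the wild-type and 20.1, 45.2, 34.1, 172, 274 and 267 CPM in the knockout library. Members apart by a single UMI therefore already lay nearer to the far members than to the Dmbt1 type for Nxpe4, while nuclei with equal sums, most of them without a UMI of either set, lay between the ends for Hoxb4. B3gnt5 was at 79.8, 174, 204, 400, 368 and 519 CPM and at 123, 211, 228, 558, 561 and 653 CPM. Lgr5, which both types carry, ranged from 133 to 270 CPM in the wild-type and 155 to 346 CPM in the knockout library.

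**Figure D1:**
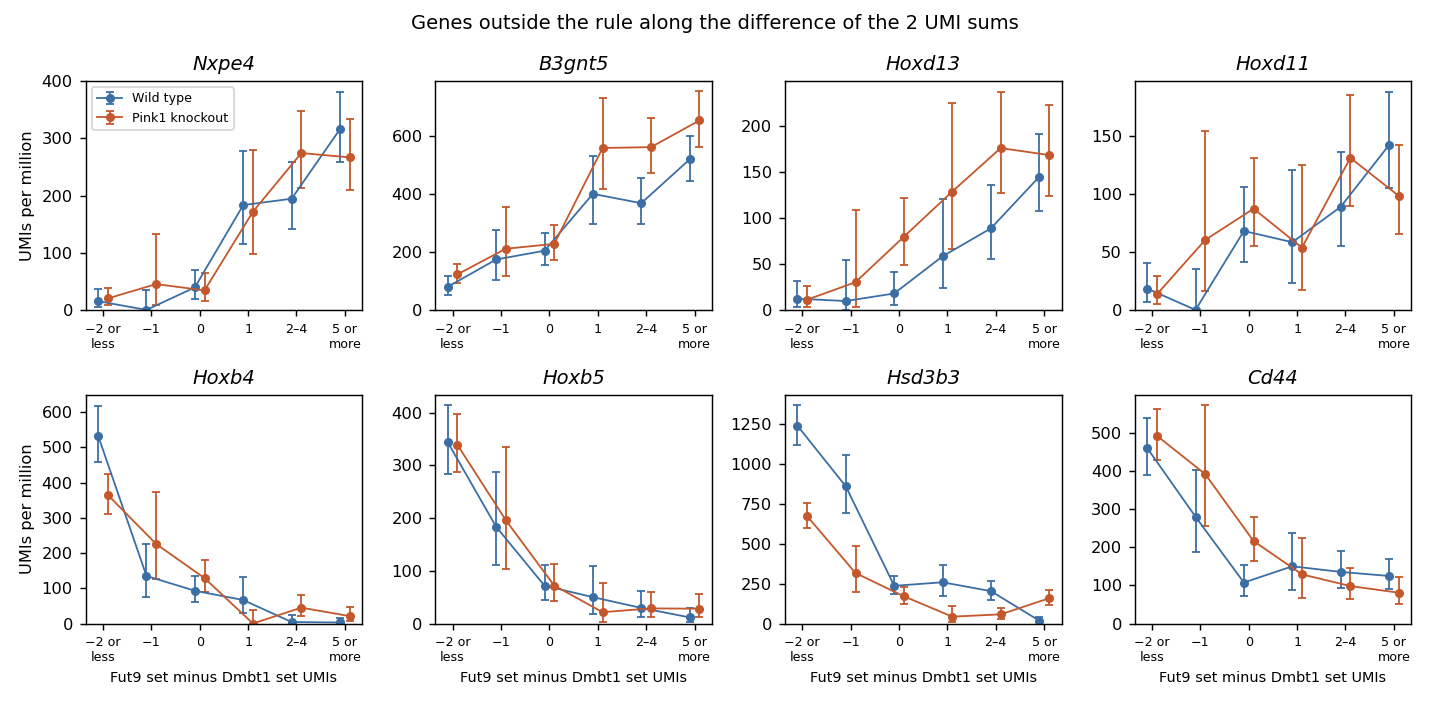
Level in CPM of 8 genes by the Fut9 set minus the Dmbt1 set of UMIs in a crypt-base nucleus, in wild-type (blue) and knockout (orange) libraries, with exact Poisson 95% intervals. Nxpe4 is lowest where the Dmbt1 set leads and at 316 and 267 CPM where the Fut9 set leads by 5 or more, and Hoxb4 runs from 534 and 365 CPM down to 2.90 and 21.1 CPM.

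Fut9 type nuclei made up 3.53% (3.16% to 3.94%) of kept nuclei in the wild-type library and 2.55% (2.28% to 2.85%) in the knockout library, a ratio of 0.722 (0.616 to 0.848). The Dmbt1 type made up 2.16% and 2.14%, a ratio of 0.991 (0.819 to 1.20). Crypt-base nuclei with 2 or more cycling UMIs made up 3.83% and 2.81%, and those with equal sums 1.65% and 1.06%. A lower share in the knockout library was thus not particular to the Fut9 type. Stromal nuclei made up 7.40% and 10.3% of the same total. Among nuclei of both types, 62.1% (57.7% to 66.3%) of 506 were of the Fut9 type in the wild-type and 54.4% (50.2% to 58.5%) of 570 in the knockout library, a ratio of 0.876 (0.747 to 1.03). The lower share of the Fut9 type among all nuclei was thus past counting error. The interval of the ratio among both types holds 1, but it treats the counts as independent of their totals. For shares this large it is too wide, so it does not show whether that ratio is past counting error. With every nucleus thinned to 1000 UMIs before the rule was applied, which left out 1701 wild-type and 1708 knockout nuclei, the shares were 1.84% and 1.5%, a ratio of 0.819 (0.646 to 1.04). Dmbt1, a secreted scavenger receptor of the rule's opposing set, was itself higher in knockout nuclei of every kind: it was at 99.8 and 159 CPM in members, 544 and 970 CPM outside the gate and 68.7 and 119 CPM in stromal nuclei. With Dmbt1 left out of the rule, an alternative chosen after seeing the data, 348 and 375 nuclei were members. The ratio among all nuclei was 0.789 (0.680 to 0.915), and that within both types was 1.01 (0.871 to 1.17), the latter interval again too wide. The Dmbt1 type then held only 71 and 72 nuclei, so the Fut9 type was most of both types in each library, and the part of Dmbt1 in the lower share was not tested. With 1 library per genotype these are shares of libraries, and the fraction of each cell type that a preparation of nuclei takes up was not measured.

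Within the members, 5357 genes had at least 50 counts over both libraries and were outside the rule. Of these, 353 (6.59%) were at least 1.5-fold higher and 312 (5.82%) at least 1.5-fold lower in the knockout library, with a median log2 ratio of -0.00. In the Dmbt1 type, 6.87% of 4221 genes were higher and 6.59% lower. For many of the genes below, the ratios in the Dmbt1 type and in nuclei outside the gate are given too; they come from the same 2 libraries.

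Immediate early genes respond to stimuli and to handling before new protein is made, and they had the highest median ratio of the lists described. Of 25 listed, 11 were measured, and 9 were higher and 0 lower, with a median log2 ratio of 1.29; in the Dmbt1 type 6 of 11 were higher and 0 lower, with a median of 1.14. Egr1, a zinc finger transcription factor, had 9 counts in wild-type and 637 in knockout members, or 12.8 and 1023 CPM, a ratio of 79.8 (41.8 to 175). The ratio was 28.3 (17.5 to 48.8) in the Dmbt1 type and 25.3 (23.2 to 27.5) outside the gate, and stromal nuclei held 101 and 1695 CPM. Egr1 was thus high in knockout nuclei of every kind, and the wild-type members were lower than the other wild-type nuclei. Fos had 20 and 162 counts, or 28.5 and 260 CPM, a ratio of 9.13 (5.72 to 15.3), against 7.46 and 7.61 in the other groups and 25.2 and 344 CPM in stromal nuclei. Zfp36, which destabilises AU-rich mRNAs, was at 4.90 (2.99 to 8.42), beside 3.12 and 2.99. Junb was at 2.97, Ier2 at 2.94, Btg2 at 2.45, Klf6 at 1.89, Jund at 1.69 and Jun at 1.58. In the Dmbt1 type Klf6 was at 0.910 (0.686 to 1.21) and Jun at 0.990 (0.663 to 1.49). The 2 measured genes not past 1.5-fold were Fosl2 at 1.49 and Klf4 at 1.14.

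Several glucocorticoid-related genes were higher in knockout members. Of 6 measured genes of the glucocorticoid list, 4 were higher and 0 lower, with a median log2 ratio of 1.16 and of 0.59 in the Dmbt1 type. Sgk1, a kinase that raises sodium uptake, had 46 and 250 counts, a ratio of 6.13 (4.46 to 8.58), against 3.81 in the Dmbt1 type and 6.13 outside the gate. Ddit4, an inhibitor of mTOR, was at 4.18 (2.41 to 7.62), Klf9, a glucocorticoid-induced factor, at 2.71 (2.06 to 3.59), and Hsd11b2, which inactivates glucocorticoids, at 1.86. The glucocorticoid receptor gene Nr3c1 was at 1.03 (0.731 to 1.46) and the mineralocorticoid receptor gene Nr3c2 at 0.734 (0.534 to 1.003). Fkbp5, a further glucocorticoid target, was at 1.17 (0.643 to 2.15), with 24 and 25 counts, short of the 50 of a measured gene, and an interval that holds 1. Outside the list, Txnip, an inhibitor of thioredoxin and glucose uptake, had 196 and 907 counts, or 279 and 1457 CPM, a ratio of 5.22 (4.47 to 6.12). The Dmbt1 type stood at 3.27 (2.77 to 3.89) and nuclei outside the gate at 3.02 (2.95 to 3.11), both below the members.

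EGF receptor and ERK pathway genes followed, with 7 of 16 measured genes higher and 0 lower and a median log2 ratio of 0.40; in the Dmbt1 type 3 of 13 were higher and 0 lower, with a median of -0.00. Among ligands, Hbegf had 11 and 71 counts, a ratio of 7.28 (3.83 to 15.2), beside 11.8 in the Dmbt1 type and 6.04 outside the gate. Among receptors, Erbb2 was at 1.53 (1.02 to 2.30) and Egfr at 1.29 (0.798 to 2.09), an interval that holds 1. Mapk3, the kinase ERK1, was at 1.58. Of the feedback inhibitors, Errfi1 had 28 and 100 counts, a ratio of 4.03 (2.63 to 6.36), beside 2.47 and 4.03, Dusp6, an ERK phosphatase, was at 1.96 (1.15 to 3.43) and Spry2 at 1.71 (1.06 to 2.78). The Errfi1 level in stromal nuclei was 53.2 and 1538 CPM, and without nuclei that held a stromal or immune marker UMI the ratio in members was 2.24. Phlda1 was at 1.59 (1.08 to 2.38) and at 0.951 without those nuclei.

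The letters of the cyclic AMP response element were present in 3 of 21 immediate early genes and 4 of 21 EGF receptor and ERK genes that had a promoter window, beside 1.55% of all windows. For each motif here, a gene was counted when any of its windows held the letters, and some genes have several windows. All listed genes with a window were counted, whether or not they were measured or higher in knockout members. The shares of all windows count each window singly, so the 2 measures are unlike and the gene counts are favoured. The CArG box, the serum response factor motif, was in 2 and 1 of these 21 and in 1.47% of all windows. The AP-1 letters TGANTCA were in 0 and 1 of 21 and in 6.75% of all windows, and a TGANTCA match cannot lie within a TGACGTCA match. A match describes these letters in this window only. The TCF/LEF letters CTTTGAT were in 2 of 18 Wnt target and stem cell genes with a window and in 3.21% of all windows.

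Further genes chosen by the size of their ratio were Hist1h1c, a linker histone, with 14 and 89 counts and a ratio of 7.17 (4.05 to 13.6), beside 2.67 in the Dmbt1 type and 3.70 outside the gate, and H3f3b, the replacement histone H3.3, with 227 and 687 counts and a ratio of 3.41 (2.93 to 3.98). H3f3b was at 2.76 in the Dmbt1 type and 4.07 outside the gate. Elf3, an epithelial ETS factor, had 74 and 204 counts, a ratio of 3.11 (2.37 to 4.11), beside 2.52 (1.85 to 3.46) in the Dmbt1 type and 1.89 (1.79 to 1.98) outside the gate. H3f3b and Elf3 were higher in all 3 kinds of nuclei.

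Lower in knockout members were Sgpp2, a sphingosine phosphate phosphatase, with 138 and 41 counts, or 197 and 65.9 CPM, a ratio of 0.335 (0.230 to 0.478), and Car2, the main cytosolic carbonic anhydrase, with 242 and 85 counts, or 345 and 137 CPM, a ratio of 0.396 (0.306 to 0.509). Sgpp2 was at 0.486 and 0.485 in the Dmbt1 type and outside the gate, and Car2 at 0.451 and 0.616. Plin2, which coats lipid droplets, had 42 and 8 counts, a ratio of 0.215 (0.0871 to 0.463), beside 0.611 and 0.595. Clec2d, a lectin recognised by natural killer cells, was at 0.490 (0.380 to 0.628), Gsdmc2, a gasdermin, at 0.467 (0.343 to 0.631), and Tnip3, an NF-kappa B inhibitor, at 0.359 (0.228 to 0.551). These 6 genes were below 1 in the Dmbt1 type and outside the gate as well, with the interval for Plin2 in the Dmbt1 type reaching 1.42. Gsdmc2 has near-identical neighbours, so its counts are uncertain.

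Galk2, a galactosamine kinase, had 54 and 13 counts in members, a ratio of 0.271 (0.136 to 0.504). It was at 1.62 (0.876 to 3.1) in the Dmbt1 type and 0.876 (0.805 to 0.954) outside the gate, so the lower level was not seen in the Dmbt1 type. Stromal nuclei held 54.2 and 35.6 CPM, near the 77.0 and 20.9 CPM of members, and no test of the difference between types can be made with 1 library per genotype. Hand2os1, an antisense RNA of mesenchymal cells, had 60 counts in wild-type and 1 in knockout members, but 95% of the wild-type counts lay in 1 nucleus.

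**Figure D2:**
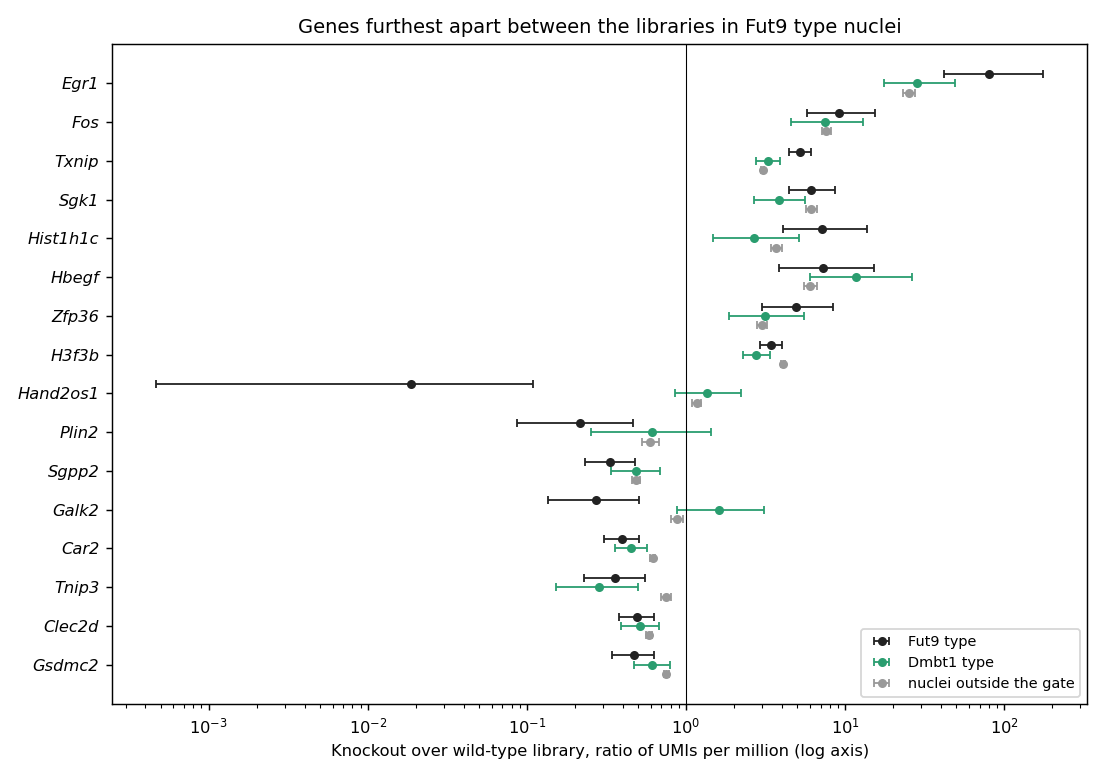
Knockout over wild-type ratio (log axis) of the 8 highest and 8 lowest genes in the Fut9 type (black), with the Dmbt1 type (green) and nuclei outside the gate (grey), and 95% counting intervals. Egr1 is at 79.8 in the Fut9 type and 28.3 and 25.3 in the others, Galk2 at 0.271 beside 1.62 and 0.876, and the wide low interval of Hand2os1 rests on 1 count.

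Wnt and replication genes were taken next. Of 12 measured Wnt target and stem cell genes outside the rule, 0 were higher and 2 lower, with a median log2 ratio of 0.02, beside 6.59% higher and 5.82% lower of all measured genes. The lower genes were Zbtb38, a zinc finger factor, with 234 and 134 counts and a ratio of 0.646 (0.518 to 0.802), and Sox4, a progenitor transcription factor, with 96 and 53 counts and a ratio of 0.622 (0.436 to 0.879). Zbtb38 was at 1.05 (0.837 to 1.31) in the Dmbt1 type, and Sox4 at 0.654 (0.444 to 0.959). Sox9 had 160 and 198 counts, a ratio of 1.39 (1.13 to 1.73), beside 0.809 (0.564 to 1.16) in the Dmbt1 type. Among 16 measured Wnt receptors and effectors 2 were higher and 0 lower, Fzd7, a Wnt receptor, at 1.78 (1.06 to 3.03) and Dvl3, which relays the signal, at 1.71 (1.17 to 2.52), with a list median of 0.05. Of 34 DNA replication genes listed, 11 were measured and 0 were past 1.5-fold in either direction, with a median of -0.05.

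Notch and secretory genes had 2 of 8 measured genes higher and 0 lower, with a median log2 ratio of 0.42. Hes1, the Notch target that holds cells absorptive, had 163 and 235 counts, a ratio of 1.63 (1.33 to 2.00), beside 1.84 in the Dmbt1 type and 1.73 outside the gate. Tff3, a goblet cell peptide, had 19 and 38 counts, a ratio of 2.25 (1.27 to 4.14), with 36.8% of the knockout counts in 1 nucleus. Stromal nuclei held 32.9 and 28.9 CPM of Tff3, both above the wild-type members' 27.1 CPM. Id1, a BMP target, was at 1.90 (1.35 to 2.68) and was the 1 of 9 measured BMP genes past 1.5-fold.

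Among 12 gut identity factors 2 were higher and 0 lower, with a median log2 ratio of -0.25: Elf3, described above, and Cdx1, a caudal homeobox factor of the intestine, at 1.73 (1.17 to 2.58). Klf5, a factor of dividing crypt cells, had 671 and 418 counts, a ratio of 0.702 (0.620 to 0.795), which lies short of 1.5-fold and was 0.529 in the Dmbt1 type. In the Hox list, Hoxb9 was at 1.5 (1.24 to 1.82) and Hoxa10 at 0.526 (0.298 to 0.902), the 1 gene past the fold in each direction among 11. Hoxd13 was at 1.49 (1.10 to 2.02).

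For the sugar and oxidase genes that mark the type, 2 of 13 measured fucosyltransferase and Lewis genes were higher and 0 lower, B3gnt3, which extends O-linked sugars, at 2.03 (1.22 to 3.45) and Tsta3, which makes GDP-fucose, at 1.56, and 0 of 4 oxidase genes were past 1.5-fold, with Duox2 at 1.05 (0.807 to 1.37). Gpx2, the gut glutathione peroxidase, had 130 and 250 counts, a ratio of 2.17 (1.75 to 2.70), beside 4.52 (3.19 to 6.57) in the Dmbt1 type, and was the 1 of 14 antioxidant genes past 1.5-fold. The 16 measured mitophagy genes, the pathway of Pink1, had 1 higher, Fis1 at 1.53, and 1 lower, Bnip3l at 0.665, with a median log2 ratio of -0.05. The 12 genes of mitochondrial biogenesis had 0 in either direction with a median of -0.14.

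Of 16 ion transport genes, 1 was higher and 3 lower, with a median log2 ratio of -0.03. Kcnn4, a calcium-activated potassium channel, was at 1.70 (1.24 to 2.35), Kcnq1, a potassium channel of secretion, at 0.656 (0.430 to 0.988), and Cftr, the chloride channel of secretion, had 526 and 390 counts and a ratio of 0.836 (0.731 to 0.955). The lower genes also include Car2 and Car12. Core clock genes had 1 higher, Arntl at 1.57, and 1 lower, Nr1d1 at 0.630, of 8 measured. Of the clock output genes Bhlhe40, a repressor, was at 2.53 (1.96 to 3.29) and Tef at 0.376 (0.184 to 0.719), beside 0.441 and 0.380 in the Dmbt1 type and outside the gate. Nr1d2 was at 0.680 (0.513 to 0.896). No gene of the MHC class II list reached 50 counts in members.

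**Figure D3:**
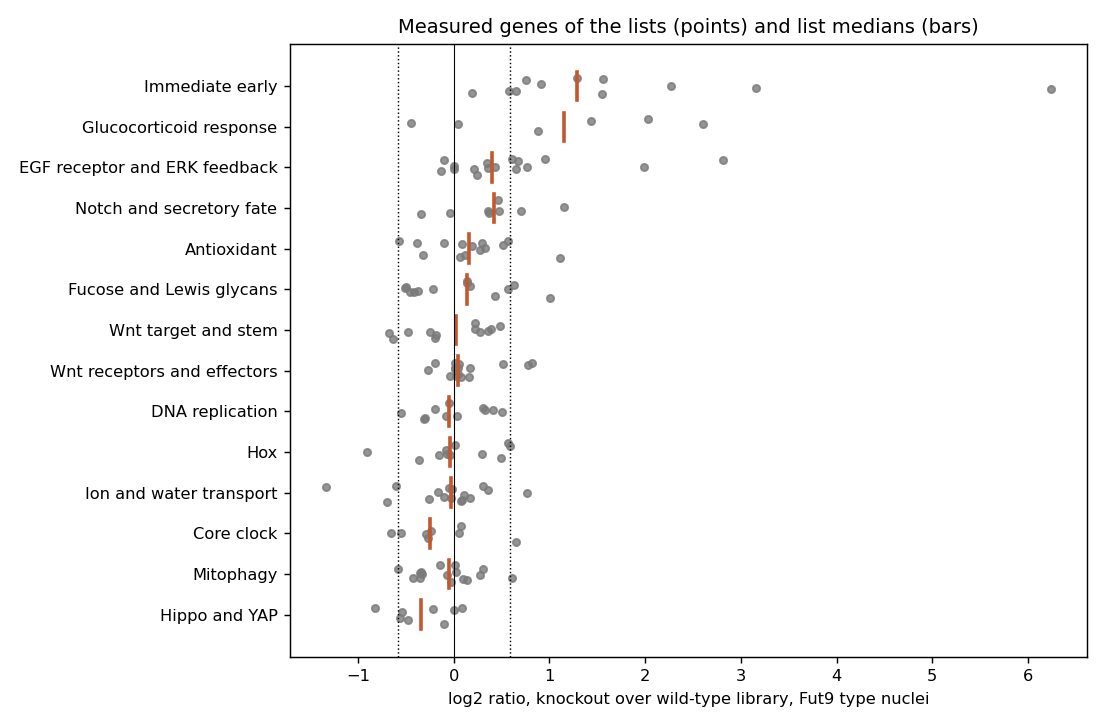
Log2 ratio of knockout over wild type in the Fut9 type for each measured gene of 14 lists, with the list's median as an orange bar and 1.5-fold as dotted lines. The immediate early genes have a median of 1.29 and the glucocorticoid genes of 1.16, while Wnt target and stem cell genes lie at 0.02 and DNA replication genes at -0.05.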

How the data were processed

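The authors deposited UMI counts for every gene and barcode. Cell Ranger 6.1.2 made them, per the file headers, and the genome was mm10 (GRCm38), per the submitters' processing notes. No source used here gives the annotation release, whether introns were counted or whether doublets were removed. Barcodes were kept with at least 500 UMIs, 300 genes and at most 10% mitochondrial UMIs. The membership rule was applied to the counts, without clustering or integration. Counts were summed per library and type and scaled to CPM over nuclear-encoded genes. A gene was measured with at least 50 counts and named past the fold at 1.5. Ratios have exact conditional binomial, shares Clopper-Pearson and counts Poisson 95% intervals. Log2 ratios had 0.5 added to each count, and the 21 genes of the rule were left out of lists and gene counts. No doublets were removed beyond the rule. The ratio code was tested on simulated data.

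Members and the 25 gene lists were chosen with earlier results of these data known. Named genes were those of the rule and Pink1, the 8 highest and 8 lowest of each contrast by the interval bound nearest to 1, and the furthest members of each list. Coordinates came from GENCODE M21, matched for 32235 of 32285 IDs; 38 symbols were shared by more than 1 ID. Python 3.11.15, NumPy 2.4.6, SciPy 1.17.1, pandas 2.3.3 and scanpy 1.11.5 (Scrublet) were used. Alternatives were a stricter filter, doublet removal, stricter clauses of the rule, thinning to 1000 UMIs, centring, means over nuclei, free RNA subtraction, leaving out the top nucleus and a minimum of 20 counts.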

Additional observations from a re-analysis of the deposited data

How the results depend on the processing

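No paired analysis was possible because each genotype has 1 library, and no replicate could be left out for the same reason. With a minimum of 20 counts in place of 50, 20.3% of measured genes were at least 1.5-fold apart between the libraries in members, against 12.4%; the cause was not tested. Over 124 gene results and 1356 comparisons with an alternative, 1285 stayed within the interval of the reported value, 70 moved outside it and 1 turned direction. Phlda1 went from 1.59 to 0.951 when nuclei with a stromal or immune marker UMI were left out, and the cause was not tested. A turn was counted only where the reported interval did not hold 1, and an alternative with 0 counts on either side gave no comparison. Ratios that moved by over 1.5 times included Junb at 5.22 without Scrublet doublets, and, with members thinned to 1000 UMIs, Plin2 at 0.0540, Klf6 at 3.67 and Tef at 0.184. Between the types, Hoxd13 in the wild-type library went to 41.1 and Hoxd11 in the knockout library to 39.0 without Scrublet doublets, and Hoxb4 in the wild-type library to 0.0100. Members numbered 272 and 300 under the stricter filter, 287 and 287 without Scrublet doublets, 197 and 178 without nuclei holding a stromal or immune marker UMI, and 265 and 245 with at least 4 crypt-base UMIs. Depth limits what a single nucleus shows, since a gene at a low level may give no UMI in it.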

Other observations

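The pair of genes here had ratios that lay apart in the 2 types, which was not tested between single libraries. The intervals of the types overlap for Lats1, so no difference beyond counting error was shown for it, and do not overlap for Mcm3. Lats1, a Hippo pathway kinase, had 88 counts in wild-type and 44 in knockout members, a ratio of 0.564 (0.383 to 0.818), beside 0.980 (0.629 to 1.53) in the Dmbt1 type. Mcm3, a subunit of the replicative helicase, had too few counts to be measured in members, 27 and 7, a ratio of 0.292 (0.107 to 0.688), and was at 2.50 (1.14 to 6.05) in the Dmbt1 type and 0.995 (0.780 to 1.27) outside the gate. It was named after its values were seen. Crypt-base nuclei with 2 or more cycling UMIs, which the rule leaves out, numbered 340 and 341 and held Fut9 at 831 and 657 CPM, between the levels of the Fut9 and Dmbt1 types. This group was not divided by the balance of the sums, so its level is an average over nuclei of either balance. A Fut9 UMI was found in 47.9% and 40.8% of them, and Dmbt1 was at 730 and 1697 CPM.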
